A study of Homo sapiens with 6 samples.

Results

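Spheroid culture without serum was compared with attached monolayer culture in SK-N-AS, an established human neuroblastoma cell line. The comparison takes every array of both cultures that carried no drug pretreatment in the sample labels, 2 titled Sphere and 2 titled Monolayer, which makes 4 of the 6 arrays of the series. Monolayer cells were grown attached, and no medium is stated for them. Sphere cells formed spheroids in serum-free medium. The remaining 2 arrays, iCSC, came from cells that had received 2.5 uM 5AdC (an inhibitor of DNA methylation) for 5 days as a monolayer before spheroid growth, and they entered only the filter on low values and the shared estimate of the spread. The series was made to ask about the stem cell phenotype of the 3 cultures. All arrays come from 1 cell line. Attachment and medium may both differ between the cultures, and their effects cannot be told apart. The labels do not state whether both arrays of a culture were made from separate dishes or passages. The p-values therefore cover the spread from array to array, which may be technical.

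Cells that leave a plastic surface lose the tension and matrix contacts that attachment gives, and cells without serum lose its growth factors, lipids and hormones. Neuroblastoma arises from the sympathetic lineage of the neural crest, and its lines can hold cells of a noradrenergic, neuron-like type and of a mesenchymal, matrix-producing type. Spheroid growth in serum-free medium is widely used to enrich tumour cells with stem-like properties.

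Levels are the deposited log2 GCRMA signals, and log2 5 was taken as the limit of background. A gene entered when a probe set reached this limit on 2 or more of the 6 arrays, which gave 10459 genes. Each was tested with limma over the 6 arrays, and a gene is said to rise or fall in Sphere when its Benjamini-Hochberg adjusted p-value, with every tested gene in the adjustment, was under 0.05. Differences are given as Sphere minus Monolayer on the log2 scale with their standard error (SE). Where both arrays of a culture lay under the limit, the fold is a lower bound with every value under 5 set to 5, written "at least", and the p-value beside it tests the values as deposited and not the bound.

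Of the 10459 genes, 6176 were called (59.0%), with 3134 higher (30.0%) and 3042 lower (29.1%) in Sphere, and 6616 had an unadjusted p under 0.05. Over all tested genes the median change was 0.0062. Most calls were made between measured levels: 9018 genes lay at or above the limit on all 4 arrays, and of these 2380 rose and 2602 fell, by at least 2-fold in 958 and 896. A further 645 genes were under the limit on both Monolayer arrays and above it on both Sphere arrays, against 375 with the reverse pattern. The 2 arrays of each culture were alike (Pearson's r was 0.996 for Monolayer and 0.992 for Sphere, across genes that are no independent replicates), and the 3' to 5' difference of the ACTB control probe sets, a sign of RNA integrity, lay between 1.16 and 1.25 on all 4. The chromosomes differed in their median change, which was 0.49 over chromosome 12 and -0.46 over chromosomes 3 and 15. It was 0.29 over chromosome 2, 0.24 over chromosome 4 and -0.22 over chromosome 8. Genes named below lie on them, for example STT3B, PSMD6, IMPDH2, CRTAP and RRP9 on chromosome 3. TMED3, ETFA, PDIA3 and THBS1 are on chromosome 15, ISCU, PHLDA1 and IFT81 on chromosome 12, and NDUFA10, WDR12 and HADHB on chromosome 2. The part of these shifts in the change of a single gene was not tested, beyond an alternative that removed the chromosome medians.

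**Figure D1:**
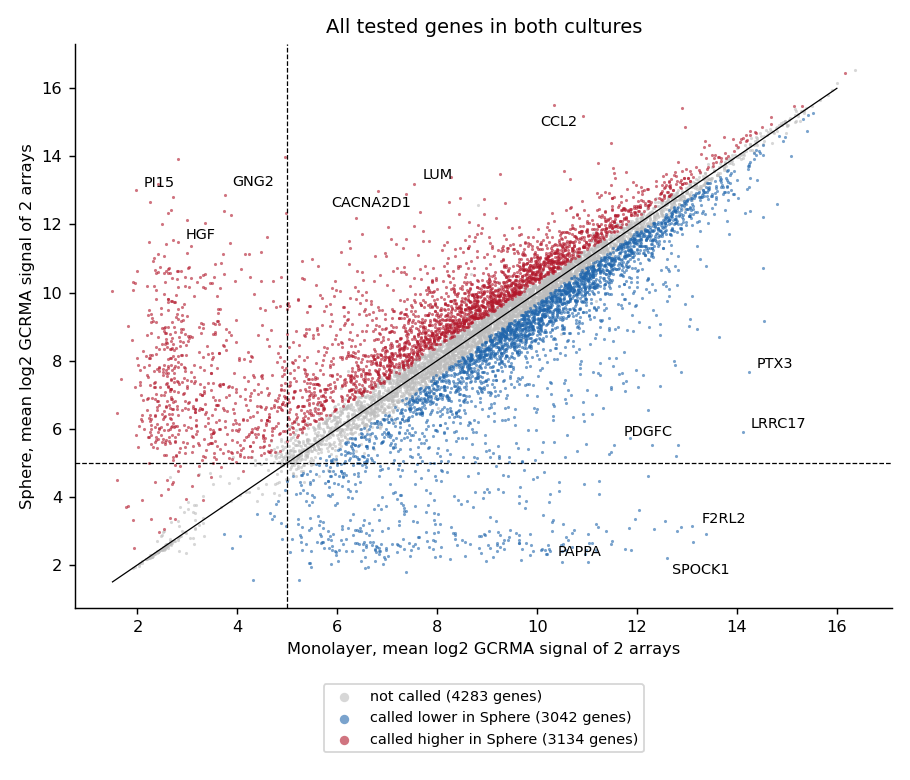
Each point is 1 of 10459 tested genes, with its mean log2 GCRMA signal over the 2 Monolayer arrays on the x axis and over the 2 Sphere arrays on the y axis. Red points were called higher and blue points lower in Sphere, grey points were not called, the dashed lines mark log2 5 and the solid line marks equal levels. The columns of red points at the left and blue points at the bottom are genes measured in one culture and under the limit in the other.

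Among genes measured in both cultures, the steepest rises included membrane, matrix and signalling genes. CACNA2D1, an auxiliary subunit of voltage-gated calcium channels, lay at 6.62 and 6.14 on the Monolayer arrays and at 12.37 and 12.001 on the Sphere arrays, a difference of 5.80 ± 0.19 (limma, adjusted p = 1.94e-06). LUM, the collagen-binding proteoglycan lumican, lay at 7.72 and 7.35 in Monolayer and 13.05 and 13.31 in Sphere, a difference of 5.65 ± 0.15 (limma, adjusted p = 9.2e-07). SMARCA1, an ATPase of the ISWI chromatin remodellers, went from 5.29 and 5.30 to 11.04 and 10.79, a difference of 5.62 ± 0.15 (limma, adjusted p = 8.65e-07). Arrays of one culture stood close together in all these genes. The named genes were taken from those whose Sphere and Monolayer arrays did not overlap, so the lack of overlap among them is set by that choice. MAB21L2, a gene of eye and neural development, rose by 5.52 ± 0.19, the microtubule-associated kinase DCLK1 by 5.23 ± 0.47, and the collagen-binding integrin ITGA1 by 5.18 ± 0.53 (largest adjusted p of the 3 in limma, 0.000277). CCL2, the monocyte chemokine, was already at 10.39 and 10.31 in Monolayer and reached 15.33 and 15.70 in Sphere (5.17 ± 0.31, limma, adjusted p = 2.31e-05).

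Falls between measured levels were steeper still. LRRC17, a secreted leucine-rich repeat protein, lay at 14.19 and 14.07 in Monolayer and 5.65 and 6.18 in Sphere, a difference of -8.22 ± 0.21 (limma, adjusted p = 8.38e-07). PTX3, a secreted pentraxin of innate immunity, lay at 14.20 and 14.29 in Monolayer and 6.83 and 8.53 in Sphere, a difference of -6.56 ± 0.54 (limma, adjusted p = 0.000104). The Sphere arrays differed from each other in PTX3 by more than the Monolayer arrays did. The calcium-binding proteins S100A2 and S100A10 fell by 108-fold and 42.3-fold, the phosphatase PTPN14 by 70.00-fold, the dynamin DNM3 by 64.3-fold, the neuronal pentraxin NPTX2 by 50.5-fold, the adhesion protein FLRT2 by 43.4-fold and TWIST2, a transcription factor of mesenchymal cells, by 42.98-fold.

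Other genes moved between background and high signal. PI15, a secreted peptidase inhibitor, was at 1.96 and 1.99 on the Monolayer arrays against 12.81 and 13.20 on those of Sphere, at least 257-fold higher (limma, adjusted p = 6.05e-07). GNG2, a gamma subunit of heterotrimeric G proteins, was at 4.06 and 3.44 and 12.90 and 12.80, at least 231-fold higher (limma, adjusted p = 6.66e-07). In the other direction F2RL2, a receptor of the thrombin family, went from 12.999 and 13.22 in Monolayer to 3.18 and 3.10 in Sphere, at least 276-fold lower (limma, adjusted p = 6.05e-07), and the secreted protease PRSS23 and the proteoglycan SPOCK1 fell at least 223-fold and 194-fold. In bulk RNA, fewer cells of a type and less RNA per cell cannot be told apart, and this holds for every change given here.

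The cell type of the label was checked against markers. Of 11 markers of sympathetic neuroblasts with a probe set, only DBH, the noradrenaline-producing enzyme, lay under the limit on all 4 arrays, and the summed linear signal of the 10 tested was 1278 and 1019.8 in Monolayer against 41231 and 34158 in Sphere. Several defining members, among them PHOX2A, HAND1, TH and CHGB, were under the limit on both Monolayer arrays. Of 9 fibroblast markers, 2 (COL1A2 and FAP) were under the limit on all 4 arrays, and of the 8 tested 5 rose and 2 fell. Their summed signals were 22400.0 and 22043 in Monolayer and 24504 and 23826 in Sphere. The sums rest mostly on COL3A1 in Monolayer, and on COL3A1 and LUM in Sphere, where LUM lay at 13.05 and 13.31. COL3A1, a fibrillar collagen, fell from 14.27 and 14.25 to 13.47 and 13.24 (limma, adjusted p = 0.025). That call was lost with any one of the 4 Monolayer and Sphere arrays left out (highest limma adjusted p over the alternatives, 0.15). LUM and DCN are described elsewhere in the text, and THY1, a surface glycoprotein, went from 2.21 and 2.18 to 8.86 and 8.65, at least 13.5-fold higher (limma, adjusted p = 8.38e-07). Skeletal muscle markers lay under the limit in all 6 of 6 cases, adrenal cortex markers in 5 of 6, Schwann cell markers in 4 of 5 and endothelial markers in 7 of 9. The epithelial list had 7 of 10 under the limit, and the sum of the other 3, KRT7, KRT8 and KRT18, was 8469 and 7531 in Monolayer and 354 and 393 in Sphere. The keratins KRT8 and KRT18 fell by 11.2-fold and 29.8-fold, whereas KRT7 rose at least 1.37-fold from background to 5.83 and 5.08 (limma, adjusted p = 7.24e-05). With log2 5 as a floor under all values KRT7 did not pass (limma, adjusted p = 0.157). Of 5 melanocyte markers, TYR and MLANA were under the limit, and the sum of MITF, PMEL and TYRP1 was 824 and 504 in Monolayer and 4150.1 and 5716 in Sphere. Of these, MITF, the transcription factor of the lineage, fell from 7.84 and 7.78 to 6.05 and 6.12 (limma, adjusted p = 0.000274), while PMEL, a melanosome protein, rose at least 14.2-fold and TYRP1, a pigment enzyme, by 10.96-fold (limma, adjusted p = 0.0137). The call of TYRP1 was lost without Monolayer replicate 2, Sphere replicate 1 or Sphere replicate 2 (highest limma adjusted p over the alternatives, 0.118). The part of other cell types in the changes given here was not tested.

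Across 61 pathway lists, the share of members called differed widely. The lists are described by counts and medians against the 30.0% of all genes that rose and the 29.1% that fell, and members that entered the test only through the culture in which they were measured had to differ.

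**Figure D2:**
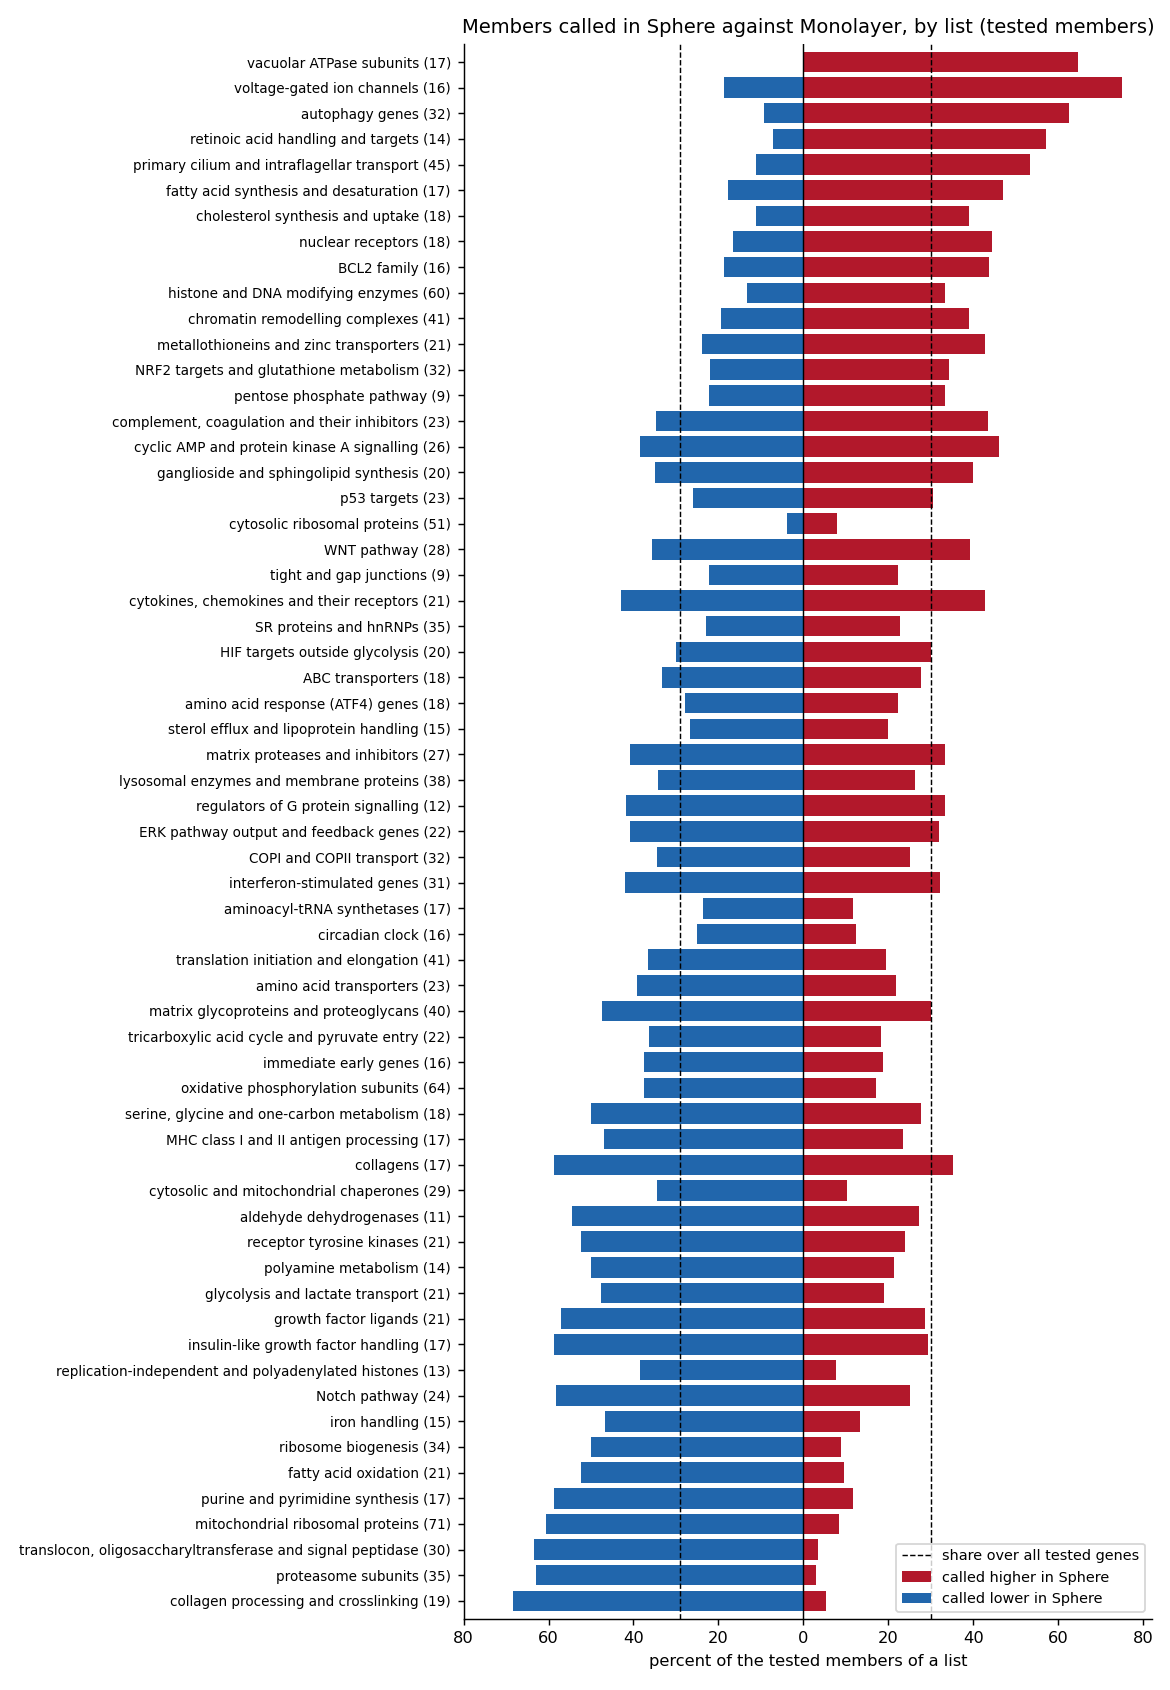
Bars show, for each of 61 lists, the percent of its tested members (number in brackets) called higher (red, to the right) or lower (blue, to the left) in Sphere than in Monolayer, and the dashed lines mark the 30.0% and 29.1% of all tested genes. Vacuolar ATPase, ion channel, autophagy and cilium genes stand at the top, and proteasome, translocon and collagen processing genes at the bottom.

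Growth factor ligands and receptor tyrosine kinases fell more often than they rose, whereas the genes of ERK output and the immediate early genes had members called in both directions. Of 43 listed growth factor ligands 21 were tested, of which 12 fell and 6 rose, with a median of -1.12, or -1.05 with values under 5 set to 5; 8 of the 21 lay under the limit on both arrays of one culture. Receptor tyrosine kinases bind such ligands at the cell surface and signal through the ERK and AKT kinases. FGF5, a fibroblast growth factor, lay at 10.76 and 10.65 in Monolayer and 2.89 and 2.97 in Sphere, at least 52.2-fold lower (limma, adjusted p = 6.05e-07). TGFA, a ligand of the EGF receptor, lay at 9.10 and 8.97 and 2.93 and 3.07, at least 16.4-fold lower (limma, adjusted p = 1.02e-06). PDGFC, a platelet-derived growth factor, stayed above the limit and went from 12.83 and 12.81 to 5.88 and 5.14, a difference of -7.31 ± 0.23 (limma, adjusted p = 1.67e-06). These ligands were high on both Monolayer arrays and near or under the limit on both Sphere arrays. BDNF, the neurotrophin that binds TrkB, also fell, by 11.9-fold, from 10.17 and 10.47 to 7.13 and 6.35.

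Ligands on other receptors went the opposite way. HGF, which binds the receptor MET, lay at 2.81 and 2.81 in Monolayer and 11.43 and 11.54 in Sphere, at least 89.4-fold higher, and all 5 of its passing probe sets rose (limma, adjusted p = 1.33e-06). VEGFC, a lymphatic growth factor, lay at 5.52 and 5.13 and 10.30 and 10.47, a difference of 5.06 ± 0.75 (limma, adjusted p = 0.00142). KITLG, the stem cell factor that binds KIT, lay at 3.39 and 3.43 and 7.96 and 8.42, at least 9.11-fold higher (limma, adjusted p = 1.74e-05). These ligands were high on both Sphere arrays. The smallest rise named here was that of MDK, a heparin-binding neurotrophic factor, by 1.08 ± 0.16 from 10.61 and 10.41 to 11.81 and 11.35 (limma, adjusted p = 0.00148).

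Among receptor tyrosine kinases 21 of 42 listed were tested, and 5 rose, 11 fell and 5 did not pass (median -0.83). ROR1, a receptor for WNT5A, fell from 11.05 and 11.13 to 6.41 and 6.46 (-4.66 ± 0.19, limma, adjusted p = 4.61e-06). The angiopoietin receptor TEK fell at least 6.83-fold, and FGFRL1, an FGF receptor without a kinase domain, at least 4.74-fold. The ephrin receptor EPHA4, counted here with the genes of ERK output, fell at least 64.5-fold from 10.89 and 11.14. FGFR1 rose from 8.66 and 8.61 to 9.88 and 10.04 (1.33 ± 0.17, limma, adjusted p = 0.000699) in 3 of its 6 probe sets, and PDGFRB and MERTK rose by 4.89-fold and 3.85-fold. Downstream, 22 genes of ERK output and feedback split into 7 that rose and 9 that fell; 4 rose and 5 fell without Monolayer replicate 1, 6 and 5 without Monolayer replicate 2 or Sphere replicate 1. DUSP4, a phosphatase that switches ERK off, fell from 12.64 and 12.58 to 9.74 and 9.75 (-2.86 ± 0.08, limma, adjusted p = 1.2e-06), while PHLDA1 rose in all 6 of its probe sets, by 1.75 ± 0.17. Immediate early genes also moved in both directions, with 6 of 16 lower and 3 higher; 5 rose and 5 fell without Sphere replicate 1. The 9 of 16 immediate early genes called stand against the 59.0% of all genes called. CCN1, a matrix-associated protein, fell from 12.56 and 12.997 to 4.30 and 6.08, with 1 Sphere array under the limit, and JUNB, a subunit of AP-1, rose from 7.04 and 6.65 to 8.94 and 9.11 (2.18 ± 0.18, limma, adjusted p = 0.000106).

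Insulin-like growth factors are held by binding proteins and set free by proteases. Of 22 listed genes of this system 17 were tested, and 5 rose, 10 fell and 2 did not pass (median -0.77, or -0.61 with values under 5 set to 5). PAPPA, a protease that cleaves IGFBP4, lay at 11.34 and 11.66 on the Monolayer arrays against 2.67 and 2.72 on those of Sphere, at least 90.4-fold lower in 5 of 5 probe sets (limma, adjusted p = 6.05e-07). IGFBP4 itself fell from 11.82 and 11.61 to 7.80 and 6.87 (-4.38 ± 0.30, limma, adjusted p = 4.52e-05), and IGFBP5 from 13.01 and 13.12 to 9.57 and 8.89 (-3.84 ± 0.33, limma, adjusted p = 0.000124). A protease and binding proteins of the system were lower on both Sphere arrays. HTRA1, another secreted protease, fell at least 34.6-fold. Inside the cell, IRS2, an adaptor of the insulin and IGF receptors, rose from 9.58 and 9.63 to 11.19 and 11.26 (1.62 ± 0.22, limma, adjusted p = 0.000948), and the secreted IGFBPL1 rose at least 11.8-fold.

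The WNT list had members called in both directions, 11 higher and 10 lower of 28 tested, with a median of 0.10, or 0.05 with values under 5 set to 5. Without variance moderation 7 rose and 9 fell, and more fell than rose with any one of the Monolayer or Sphere arrays left out; 7 rose and 10 fell without Monolayer replicate 1 or Monolayer replicate 2, 7 and 11 without Sphere replicate 1, 8 and 10 without Sphere replicate 2. Its receptors exchanged places. FZD1 lay at 12.43 and 12.50 in Monolayer and 7.25 and 7.24 in Sphere, a difference of -5.22 ± 0.10 (limma, adjusted p = 6.05e-07), and FZD6 fell at least 16.3-fold. FZD7 lay at 7.88 and 7.78 and 11.76 and 11.29, a difference of 3.70 ± 0.20 (limma, adjusted p = 1.42e-05). RSPO3, a secreted factor that strengthens WNT signals, fell at least 24.9-fold from 9.65 and 9.63. LGR5, a receptor for such factors and a marker of stem cells in several epithelia, lay at 6.05 and 4.95 in Monolayer, with 1 array just under the limit, and at 11.12 and 10.84 in Sphere (5.48 ± 0.58, limma, adjusted p = 0.000312). DKK2, a secreted modulator of WNT receptors, rose at least 15.8-fold to 9.30 and 8.66, and TCF7L1, a TCF transcription factor of the pathway, rose by 2.31 ± 0.16 (limma, adjusted p = 4.35e-05).

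Notch receptors are activated by ligands on neighbouring cells. Of 36 listed genes 24 were tested, and 6 rose, 14 fell and 4 did not pass (median -0.73, or -0.45 with values under 5 set to 5); 9 of the 24 lay under the limit on both arrays of one culture. JAG1, a ligand, lay at 10.16 and 10.13 in Monolayer and 5.16 and 4.28 in Sphere, 1 of which was under the limit (limma, adjusted p = 7.05e-05). NRARP, a feedback target of the pathway, fell at least 6.01-fold from 7.74 and 7.44 to 3.30 and 3.20 (limma, adjusted p = 1.46e-05). The members that rose included DLL3, a ligand that acts as an inhibitor within the cell (at least 3.77-fold, in 1 of its 2 probe sets), the Deltex protein DTX3 (at least 13.9-fold) and MAML3, a coactivator of the Mastermind family, by 2.74 ± 0.26 from 7.68 and 7.23 (limma, adjusted p = 0.000187).

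**Figure D3:**
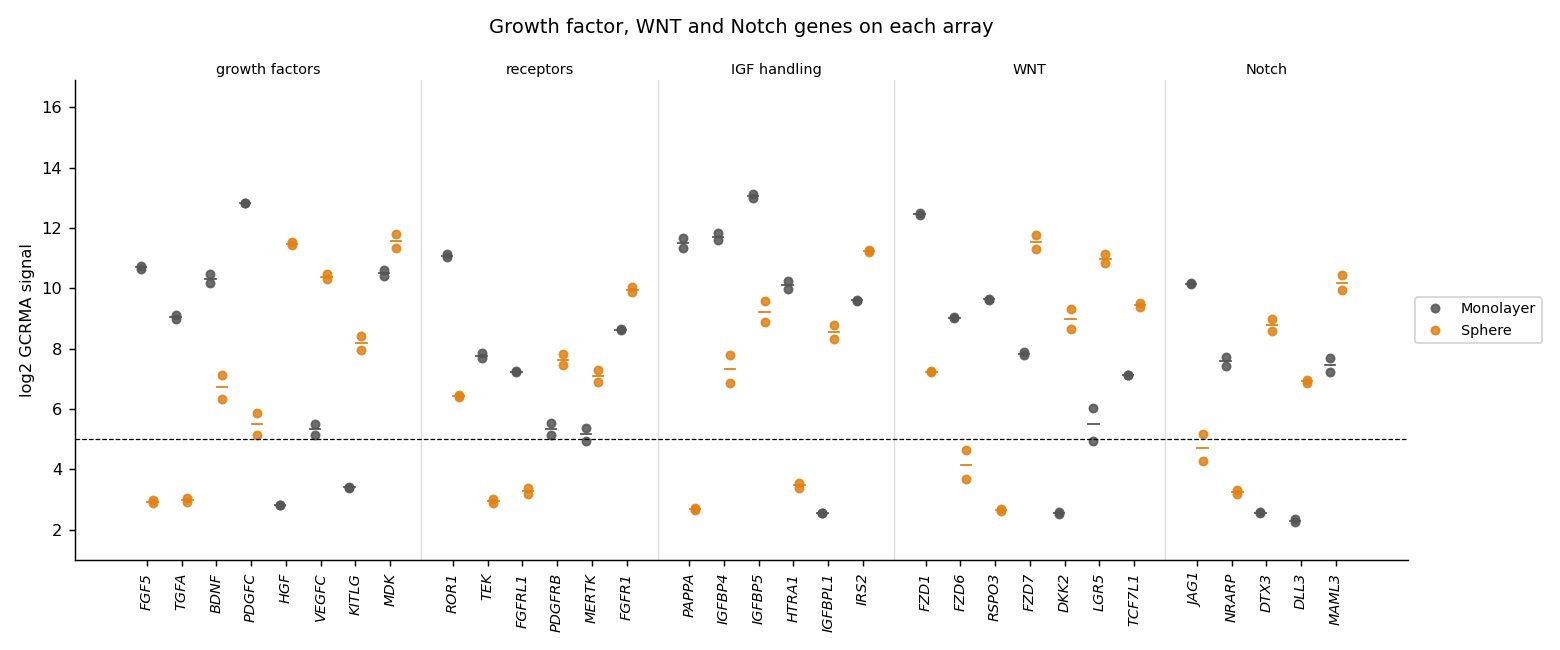
Log2 GCRMA signal of 32 genes on each array, with the 2 Monolayer arrays in grey, the 2 Sphere arrays in orange, a bar at each mean and a dashed line at log2 5. Ligands, receptors, IGF genes and the WNT and Notch genes each hold members high in one culture and members high in the other. The genes were chosen among those whose arrays do not overlap between the cultures.

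Genes of cyclic AMP signalling and of excitable membranes changed in large numbers. Of 26 tested cyclic AMP and protein kinase A genes 12 rose and 10 fell (median 0.12). PKIA, an inhibitor of protein kinase A, lay at 3.31 and 2.81 in Monolayer and 11.48 and 11.28 in Sphere, at least 83.4-fold higher (limma, adjusted p = 8.38e-07). The phosphodiesterases, which break cyclic AMP down, parted: PDE3A rose from 6.98 and 7.04 to 11.96 and 11.88 (4.91 ± 0.25, limma, adjusted p = 1.26e-05), and PDE4D fell from 9.57 and 9.83 to 7.55 and 7.51 (-2.17 ± 0.18, limma, adjusted p = 0.000121). The scaffold AKAP12, which tethers the kinase, fell by 2.25 ± 0.10. RGS proteins, which shorten G protein signals, parted likewise, with RGS16 rising at least 27.9-fold to 9.42 and 10.19 and RGS7 falling at least 25.5-fold from 9.77 and 9.58, while RGS10 fell to 5.58 and 4.74 from 8.49 and 8.55.

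Of 51 listed voltage-gated ion channel genes only 16 were tested, of which 12 rose and 3 fell (median 1.57, or 1.39 with values under 5 set to 5); 7 rose without Monolayer replicate 1 or Sphere replicate 1. Of the 12 that rose, 6 lay under the limit on both Monolayer arrays. SCN3A, a sodium channel, lay at 2.94 and 2.95 in Monolayer and 10.28 and 10.12 in Sphere, at least 36.7-fold higher (limma, adjusted p = 6.55e-07). CACNA1A, the pore of P/Q-type calcium channels, rose from 5.80 and 5.68 to 9.41 and 9.49 (3.71 ± 0.14, limma, adjusted p = 3.79e-06), and the auxiliary subunit CACNA2D2 rose at least 70.5-fold. KCNQ5, a potassium channel, was among the 3 that fell, from 8.70 and 8.69 to 5.77 and 5.32 (-3.15 ± 0.24, limma, adjusted p = 7.06e-05).

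Retinoic acid, which drives differentiation of neuroblastoma cells, is made by aldehyde dehydrogenases and acts through nuclear receptors. Of 14 tested genes of its handling and response 8 rose and 1 fell (median 0.48), and 5 of the 14 lay under the limit on both Monolayer arrays; 5 rose without Monolayer replicate 1 or Sphere replicate 2. ALDH1A3, which makes retinoic acid, lay at 3.21 and 3.28 on the Monolayer arrays against 10.47 and 10.46 on those of Sphere, at least 44.2-fold higher (limma, adjusted p = 3.64e-06). FABP5, which carries fatty acids and retinoic acid in the cell, lay at 2.50 and 2.55 and 10.99 and 11.15, at least 67.1-fold higher (limma, adjusted p = 4.57e-05). DHRS3, which turns retinal back into retinol, reached 7.20 and 6.10 from 2.37 and 2.43, at least 3.14-fold higher (limma, adjusted p = 0.0001). All were at background on both Monolayer arrays. The mitochondrial enzyme ALDH2 rose at least 52.9-fold to 10.78 and 10.67, although 6 of 11 tested aldehyde dehydrogenases fell and 3 rose. Nuclear receptors had 8 of 18 higher and 3 lower, and without variance moderation 4 rose and 4 fell. ESRRG, an orphan receptor of oxidative tissues, rose at least 48.1-fold, NR2F1, an orphan receptor of neural crest cells, rose from 7.18 and 7.38 to 10.80 and 10.40 (3.32 ± 0.16, limma, adjusted p = 1.02e-05), and NR3C1, the glucocorticoid receptor, fell from 10.60 and 10.40 to 8.86 and 9.03 (-1.55 ± 0.13, limma, adjusted p = 9.97e-05).

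The extracellular matrix changed in composition. Of 40 listed collagens 17 were tested, and 6 rose, 10 fell and 1 did not pass (median -1.08, or -0.90 with values under 5 set to 5). COL4A5, a basement membrane collagen, lay at 11.77 and 11.78 in Monolayer and 7.58 and 7.21 in Sphere, a difference of -4.38 ± 0.32 (limma, adjusted p = 6.28e-05). COL5A1, which regulates fibril assembly, lay at 9.85 and 9.78 and 5.96 and 5.93, a difference of -3.87 ± 0.16 (limma, adjusted p = 4.46e-06), and COL18A1 fell by 4.79-fold. COL6A3 and COL8A1 rose instead, at least 4.66-fold and at least 7.46-fold, from background to 7.06 and 7.38 and to 7.62 and 8.17. Among the enzymes that process and crosslink collagen, 13 of 19 tested fell and 1 rose (median -0.79). SERPINH1, the collagen chaperone HSP47, fell from 11.95 and 11.997 to 9.29 and 9.98 (-2.34 ± 0.24, limma, adjusted p = 0.000298), BMP1, the procollagen C-proteinase, fell at least 9.19-fold, and CRTAP, part of the prolyl 3-hydroxylase complex, fell by 1.27 ± 0.12 (limma, adjusted p = 0.000193). The member that rose was ADAMTS3, a procollagen N-proteinase, from 4.88 and 4.32 to 11.62 and 11.67, at least 100.1-fold (limma, adjusted p = 1.94e-06).

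Matrix glycoproteins and proteoglycans had 12 of 40 members higher and 19 lower, but 11 higher and 9 lower with x_at and s_at probe sets left out. DCN, the small proteoglycan decorin, lay at 2.73 and 2.87 in Monolayer and 10.88 and 10.40 in Sphere, at least 49.8-fold higher (limma, adjusted p = 9.05e-07). Like the related LUM above, it binds collagen fibrils, and it is also one of the fibroblast markers. SPARCL1, a relative of SPARC, and the heparan sulphate proteoglycan GPC3 rose at least 45.5-fold and 31.1-fold. THBS1, thrombospondin, fell from 11.55 and 11.61 to 7.99 and 8.14 (-3.51 ± 0.13, limma, adjusted p = 2.72e-06), the syndecan SDC1 from 10.28 and 9.90 to 5.46 and 5.16 (-4.78 ± 0.19, limma, adjusted p = 4e-06), and the TGF-beta-induced TGFBI at least 14.7-fold. The proteases that cut matrix also parted. MMP9, a gelatinase, lay at 4.45 and 4.51 in Monolayer and 10.83 and 11.53 in Sphere, at least 72.6-fold higher (limma, adjusted p = 4.06e-06), and CTSK, a collagen-cleaving cathepsin, rose at least 39.9-fold. PLAU, the urokinase that activates plasminogen, lay at 8.37 and 8.12 and 2.21 and 2.14, at least 9.49-fold lower (limma, adjusted p = 4.63e-06). TIMP3, a matrix-bound inhibitor of metalloproteinases, rose from 7.19 and 7.17 to 11.40 and 11.45 (4.25 ± 0.43, limma, adjusted p = 0.000254), the membrane protease ADAM9 fell by 7.21-fold, and the serpin SERPINI1 fell at least 37.5-fold.

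Genes of protein entry into the secretory pathway were lower. The translocon passes new proteins into the endoplasmic reticulum, where the oligosaccharyltransferase adds sugars and the signal peptidase cuts off the signal peptide. Of 30 tested genes 19 fell and 1 rose (median -0.56). SPCS3, a signal peptidase subunit, lay at 13.77 and 13.85 in Monolayer and 12.13 and 12.08 in Sphere, a difference of -1.70 ± 0.08 (limma, adjusted p = 9.42e-06). STT3B, a catalytic subunit of the oligosaccharyltransferase, lay at 12.11 and 12.11 and 10.61 and 10.79, a difference of -1.40 ± 0.09 (limma, adjusted p = 3.58e-05), and TRAM2 fell by 2.16 ± 0.16. The member that rose was SEC61A2, an alternative form of the channel's alpha subunit, from 6.97 and 6.95 to 8.47 and 8.35 (1.45 ± 0.17, limma, adjusted p = 0.000491). Of 32 COPI and COPII transport genes 11 fell and 8 rose; 4 rose and 9 fell without Monolayer replicate 1 or Monolayer replicate 2, 3 and 10 without Sphere replicate 1. The cargo receptors TMED9, TMED3 and LMAN1 fell by 2.68-fold, 2.96-fold and 2.18-fold, and the coat protein SEC31A rose by 1.66-fold.

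Ribosome assembly and protein turnover genes were lower by small amounts, whereas the cytosolic ribosome itself changed little. Of 51 tested cytosolic ribosomal protein genes 4 rose, 2 fell and 45 did not pass (median 0.03); 2 rose without Monolayer replicate 2, 8 without Sphere replicate 2. Without Sphere replicate 1, 3 rose and 6 fell. Ribosome biogenesis genes had 17 of 34 lower and 3 higher (median -0.32); 8 fell without Monolayer replicate 1 or Monolayer replicate 2, 9 without Sphere replicate 1. RRP9, an rRNA processing factor, fell by 1.44 ± 0.27, NIP7 by -0.89 ± 0.09, and WDR12, a factor of large subunit assembly, rose by 0.87 ± 0.08 (limma, adjusted p = 0.000227). The proteasome degrades ubiquitin-tagged proteins, and 22 of its 35 tested genes fell while 1 rose (median -0.40); 14 fell without Monolayer replicate 1. PSMD6, of the regulatory particle, lay at 13.32 and 13.30 in Monolayer and 12.28 and 12.41 in Sphere (-0.97 ± 0.09, limma, adjusted p = 0.000163), and PSMB6, a catalytic subunit, at 12.43 and 12.32 and 11.39 and 11.65 (-0.86 ± 0.10, limma, adjusted p = 0.000604). Among chaperones 10 of 29 fell and 3 rose; 5 fell without Monolayer replicate 1, 6 without Sphere replicate 1. The largest fall was that of HSPB8, a small heat shock protein of chaperone-assisted autophagy, which lay at 9.63 and 9.69 and 4.20 and 4.38, at least 25.3-fold lower (limma, adjusted p = 5.14e-06), and its partner BAG3 fell by 1.34 ± 0.13. Initiation factors parted, with EIF4B up by 1.27 ± 0.16 and EIF3J down by -1.27 ± 0.09. EIF4B lies on chromosome 12, where the median change was 0.49, and EIF3J on chromosome 15, where it was -0.46.

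Mitochondrial genes fell more often than they rose. Of 71 tested mitochondrial ribosomal proteins 43 fell and 6 rose (median -0.43); 4 rose and 27 fell without Monolayer replicate 1, 3 and 33 without Monolayer replicate 2. MRPS25 went from 9.28 and 9.34 to 7.39 and 7.43 (-1.90 ± 0.20, limma, adjusted p = 0.000312) in 1 of its 2 probe sets, MRPS11 fell by 1.30 ± 0.17, and MRPL23 rose by 0.80 ± 0.11. Respiratory chain and ATP synthase subunits had 24 of 64 lower and 11 higher (median -0.13); 9 rose and 12 fell without Monolayer replicate 1, 7 and 13 without Monolayer replicate 2, 8 and 15 without Sphere replicate 1. ATP5MC1, a subunit of the ATP synthase ring, fell by 1.22 ± 0.13 and NDUFA10, of complex I, rose by 1.15 ± 0.13. In the citric acid cycle and the entry of pyruvate, 8 of 22 fell and 4 rose; 3 rose and 4 fell without Monolayer replicate 1, 2 and 5 without Monolayer replicate 2 or Sphere replicate 1 or Sphere replicate 2. With x_at and s_at probe sets left out, 14 of these genes were tested, of which 4 rose and 1 fell. IDH3A, a subunit of isocitrate dehydrogenase, fell from 10.42 and 10.37 to 8.86 and 9.13 (-1.40 ± 0.12, limma, adjusted p = 0.000145), and PDHB, of pyruvate dehydrogenase, from 12.60 and 12.68 to 11.47 and 11.59 (-1.11 ± 0.08, limma, adjusted p = 5.03e-05). IDH3A and MRPS11 lie on chromosome 15 and PDHB and MRPS25 on chromosome 3, whose genes as a whole had a median change of -0.46.

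Glucose and hypoxia genes did not rise together. Among glycolytic genes 10 of 21 fell and 4 rose (median -0.48). The glucose transporter SLC2A3 lay at 7.78 and 7.46 in Monolayer and 5.43 and 5.51 in Sphere, a difference of -2.15 ± 0.18 (limma, adjusted p = 0.000106), and SLC2A1 fell by 1.01 ± 0.17 (limma, adjusted p = 0.00227). Isozymes of phosphofructokinase crossed over, PFKP falling from 10.998 and 10.98 to 9.69 and 9.96 (limma, adjusted p = 0.00102) and PFKM rising from 10.01 and 9.91 to 11.25 and 11.03 (limma, adjusted p = 0.000161), and the neuronal enolase ENO2 rose by 1.76 ± 0.13. Both PFKM and ENO2 lie on chromosome 12, where the median change was 0.49. HIF is the transcription factor of low oxygen, and of 20 of its tested targets outside glycolysis 6 rose and 6 fell. These shares, 30% each way, lay close to the 30.0% and 29.1% of all genes. ADM, the peptide adrenomedullin, fell at least 8.31-fold from 8.07 and 8.04, NDRG1 fell at least 4.45-fold, and STC2, a secreted glycoprotein, fell from 10.83 and 10.61 to 8.34 and 8.52 (-2.29 ± 0.17, limma, adjusted p = 7.15e-05). EGLN3, a prolyl hydroxylase that acts on HIF, rose at least 3.97-fold, and MXI1, an antagonist of MYC, rose from 9.36 and 9.23 to 11.55 and 11.08 (2.02 ± 0.21, limma, adjusted p = 0.000305).

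Genes of lipid synthesis rose more often than they fell. Of 18 cholesterol genes 7 rose and 2 fell (median 0.22), and with an ordinary linear model without variance moderation 3 rose. STARD4, a sterol carrier, lay at 9.19 and 9.47 on the Monolayer arrays against 11.62 and 11.75 on those of Sphere, a difference of 2.36 ± 0.17 (limma, adjusted p = 6.35e-05). HMGCS1, an early enzyme of the pathway, rose from 8.004 and 8.29 to 9.32 and 9.68 in 1 of its 2 probe sets (1.35 ± 0.21, limma, adjusted p = 0.00185), and SREBF2, the transcription factor of sterol synthesis, by 1.02 ± 0.17 in 1 of 2. TM7SF2, a sterol reductase, fell by 1.31 ± 0.15. Of 17 fatty acid synthesis genes 8 rose and 3 fell; 5 rose without Monolayer replicate 1, 3 without Monolayer replicate 2, 4 without Sphere replicate 2. The elongase ELOVL5 and the acyl-CoA synthetase ACSL1 rose by 1.99-fold and 2.92-fold, while SREBF1, the transcription factor of fatty acid synthesis, fell from 6.49 and 6.36 to 5.29 and 4.93 (limma, adjusted p = 0.00277). Fatty acid oxidation had 11 of 21 lower and 2 higher; 5 fell without Monolayer replicate 1, 7 without Monolayer replicate 2 or Sphere replicate 1 or Sphere replicate 2. ETFA, an electron carrier of that pathway, fell by 1.04 ± 0.09 and HADHB, of the trifunctional protein, rose by 0.64 ± 0.07. Of the lipid transport genes, APOE rose from 5.50 and 6.19 to 8.03 and 7.60 (limma, adjusted p = 0.00136), and MYLIP, which degrades the LDL receptor, fell by 6.998-fold.

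Sphingolipid enzymes, which build the gangliosides of neural membranes, changed in both directions, with 8 of 20 higher and 7 lower; 5 rose and 7 fell without Monolayer replicate 1 or Sphere replicate 1, 4 and 7 without Monolayer replicate 2, 6 and 7 without Sphere replicate 2. B4GALT6, which makes lactosylceramide, lay at 2.67 and 2.75 in Monolayer and 11.26 and 11.83 in Sphere, at least 93.5-fold higher (limma, adjusted p = 1.25e-06). B3GALT4, which extends gangliosides, rose at least 4.90-fold, and the ceramide synthase CERS6 rose by 3.30-fold. SGMS2, a sphingomyelin synthase, fell at least 6.12-fold, and the sialyltransferase ST3GAL1 at least 8.08-fold.

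Amino acid and nucleotide metabolism held single large rises among many modest falls. Serine and one-carbon genes had 5 of 18 higher and 9 lower; 3 rose and 5 fell without Monolayer replicate 1, 5 and 3 without Monolayer replicate 2, 4 and 5 without Sphere replicate 1, 3 and 7 without Sphere replicate 2. PSAT1, which makes serine, lay at 4.16 and 4.17 in Monolayer and 10.86 and 11.40 in Sphere, at least 69.99-fold higher (limma, adjusted p = 9.2e-07), and GLDC, which cleaves glycine, rose at least 2.08-fold. MTHFD1, of the folate cycle, and MTRR, which reactivates methionine synthase, fell by 1.88-fold and 2.79-fold. Purine and pyrimidine synthesis had 10 of 17 lower and 2 higher (median -0.37). IMPDH2, the first step towards guanine nucleotides, fell from 12.94 and 12.85 to 11.87 and 11.58 (-1.16 ± 0.11, limma, adjusted p = 0.000205), GART by -1.12 ± 0.12 in 3 of 7 probe sets and DHODH by -1.22 ± 0.23 in 1 of 2. The glutamine transporter SLC1A5 fell by 2.36-fold and SLC6A15, a neuronal carrier of branched-chain amino acids, rose at least 6.18-fold. ATF4, the factor of the amino acid response, rose by 0.69 ± 0.10, while PPP1R15A, another gene listed with that response, fell by 1.55 ± 0.19. Over 18 genes of that response 4 rose and 5 fell. The leading direction turned without Sphere replicate 1, and the counts moved with other arrays left out.

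Redox and metal genes changed by single members. Of 32 NRF2 targets and glutathione genes 11 rose and 7 fell (median 0.02). A pair of related peroxidases of the endoplasmic reticulum crossed over: GPX7 lay at 2.50 and 2.59 in Monolayer and 10.31 and 10.33 in Sphere, at least 39.9-fold higher (limma, adjusted p = 8.51e-07), and GPX8 lay at 10.11 and 10.06 and 2.50 and 2.38, at least 33.9-fold lower (limma, adjusted p = 6.05e-07). Each was at background in the culture in which the other was measured. GSTM3, a glutathione transferase, and AKR1C3, an aldo-keto reductase, rose at least 8.88-fold and 6.76-fold, and MGST2, a microsomal transferase, by 5.34-fold. The zinc transporters SLC30A1 and SLC39A11 rose by 5.30-fold and 7.43-fold, the mitochondrial iron importer SLC25A37 fell by 4.03-fold in 5 of 5 probe sets, and the iron-sulphur scaffold ISCU rose by 2.39-fold.

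Autophagy genes and the proton pump of lysosomes rose. Autophagy delivers cell contents to lysosomes, which the vacuolar ATPase acidifies. Of 32 tested autophagy genes 20 rose and 3 fell (median 0.57). WIPI1, which binds the forming membrane, lay at 5.20 and 5.02 in Monolayer and 8.05 and 7.82 in Sphere, a difference of 2.82 ± 0.36 (limma, adjusted p = 0.00072). OPTN, a cargo receptor, lay at 8.05 and 8.21 and 10.82 and 10.74, a difference of 2.65 ± 0.15 (limma, adjusted p = 1.98e-05). ATG13, of the initiating kinase complex, rose by 1.52 ± 0.17, and ATG5, of the conjugation system, fell by 0.84 ± 0.14 (limma, adjusted p = 0.00233). Of 17 tested vacuolar ATPase genes 11 rose and 0 fell in limma (median 0.42); 6 rose without Monolayer replicate 1 or Monolayer replicate 2 or Sphere replicate 1, 7 without Sphere replicate 2. At an unadjusted p under 0.05, 1 was lower, ATP6V0E1 (limma, adjusted p = 0.073), named after its value was seen. ATP6V1B2, of the catalytic head, lay at 9.67 and 9.75 and 11.12 and 11.11 (1.40 ± 0.09, limma, adjusted p = 3.04e-05), ATP6V0B, of the membrane ring, at 10.96 and 10.86 and 11.91 and 11.99 (1.04 ± 0.11, limma, adjusted p = 0.00032), and ATP6V1G1, of the stalk, at 11.12 and 10.95 and 12.03 and 12.06 (1.001 ± 0.09, limma, adjusted p = 0.000161). ATP6V1G2, the form found in neurons, rose by 4.62-fold, with 1 Monolayer array under the limit. Of 38 lysosomal enzymes and membrane proteins 10 rose and 13 fell (median -0.0012), but risers outnumbered fallers with any one of the Monolayer or Sphere arrays left out; 10 rose and 5 fell without Monolayer replicate 1, 9 and 7 without Monolayer replicate 2, 9 and 6 without Sphere replicate 1, 10 and 9 without Sphere replicate 2. The difference between this list and the vacuolar ATPase genes was not tested. GALC, a galactosylceramidase, rose at least 14.2-fold, and IDS, a sulphatase, by 3.25-fold.

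TFEB and related factors bind the letters TCACGTG in front of many lysosomal genes. Both strands of RefSeq promoter windows (GRCh38.p14, 250 bases before to 50 after each gene's start) were searched for them, with a window for 8665 of the tested genes. The letters stood in 6.31% of these windows and in 3.82% of all 27305. Of 12 vacuolar ATPase genes with a window 4 held them, and of the 8 of these that rose 3 did. The windows of ATP6V0B (chr1:43974710-43975009, plus strand) and ATP6V1G1 (chr9:114587519-114587818, plus strand) are shown, taken from the risers that hold the letters. Capitals mark the letters on either strand, which overlap as a palindrome in ATP6V1G1. A match describes the sequence and does not show that a factor binds there.
ATP6V0B: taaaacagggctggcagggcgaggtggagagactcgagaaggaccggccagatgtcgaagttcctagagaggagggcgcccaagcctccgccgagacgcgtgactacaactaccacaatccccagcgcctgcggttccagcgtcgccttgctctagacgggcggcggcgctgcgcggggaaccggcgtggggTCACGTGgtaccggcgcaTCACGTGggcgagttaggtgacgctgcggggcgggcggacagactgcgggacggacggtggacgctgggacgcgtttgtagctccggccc
ATP6V1G1: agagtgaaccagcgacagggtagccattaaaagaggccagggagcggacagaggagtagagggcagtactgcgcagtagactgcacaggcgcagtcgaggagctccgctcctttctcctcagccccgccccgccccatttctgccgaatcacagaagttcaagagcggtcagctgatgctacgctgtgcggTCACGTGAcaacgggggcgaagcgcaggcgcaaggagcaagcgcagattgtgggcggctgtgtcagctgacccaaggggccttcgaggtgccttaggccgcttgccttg

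Genes of the primary cilium, a sensory organelle that cells build when they leave the cell cycle, also rose. Of 45 tested genes 24 rose and 5 fell (median 0.53); 21 rose and 2 fell without Monolayer replicate 1, 16 and 3 without Monolayer replicate 2, 23 and 2 without Sphere replicate 2. TTC8, a subunit of the BBSome that carries membrane proteins into the cilium, lay at 8.58 and 8.64 in Monolayer and 11.59 and 11.02 in Sphere, a difference of 2.69 ± 0.18 (limma, adjusted p = 4.34e-05). WDR19, of the retrograde transport complex, lay at 6.78 and 6.60 and 9.31 and 9.07, a difference of 2.50 ± 0.15 (limma, adjusted p = 2.59e-05). CC2D2A and AHI1, of the transition zone at the cilium's base, rose by 5.99-fold and 4.54-fold. The 5 that fell included KIFAP3, a kinesin adaptor, from 12.32 and 12.29 to 11.57 and 11.26 (-0.89 ± 0.11, limma, adjusted p = 0.000712), and B9D1 by -0.79 ± 0.14.

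RFX factors, which switch on cilium genes, bind sites built from the half-site GTTGCCA. On either strand these letters stood in 11 of 40 windows of the cilium list, against 3.54% of the windows of tested genes and 4.13% of all windows. By direction, 5 of the 21 risers with a window and 1 of the 5 fallers held them. So did IFT46, IFT122, DYNC2H1, ARL6 and TMEM231, which were not called, and a difference by direction was not tested. 2 risers chosen for their match are shown, with the letters in capitals: BBS1 (chr11:66510385-66510684, plus strand), a BBSome subunit that lay at 7.23 and 7.30 in Monolayer and 8.90 and 8.45 in Sphere (1.41 ± 0.21, limma, adjusted p = 0.00156), and IFT81 (chr12:110124107-110124406, plus strand), of the anterograde transport complex, at 8.41 and 8.43 and 9.58 and 9.49 (1.12 ± 0.19, limma, adjusted p = 0.00282).
BBS1: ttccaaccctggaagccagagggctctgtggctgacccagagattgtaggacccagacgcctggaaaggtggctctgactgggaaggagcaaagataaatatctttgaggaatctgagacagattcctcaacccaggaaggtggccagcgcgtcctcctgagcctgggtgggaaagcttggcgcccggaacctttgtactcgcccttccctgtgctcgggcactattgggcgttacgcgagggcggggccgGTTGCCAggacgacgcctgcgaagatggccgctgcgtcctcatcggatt
IFT81: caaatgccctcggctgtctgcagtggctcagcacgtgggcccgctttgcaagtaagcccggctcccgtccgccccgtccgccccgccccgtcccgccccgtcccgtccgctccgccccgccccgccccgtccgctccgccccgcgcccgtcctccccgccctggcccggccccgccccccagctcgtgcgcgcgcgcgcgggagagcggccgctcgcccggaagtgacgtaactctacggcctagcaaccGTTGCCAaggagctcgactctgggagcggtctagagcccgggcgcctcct

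**Figure D4:**
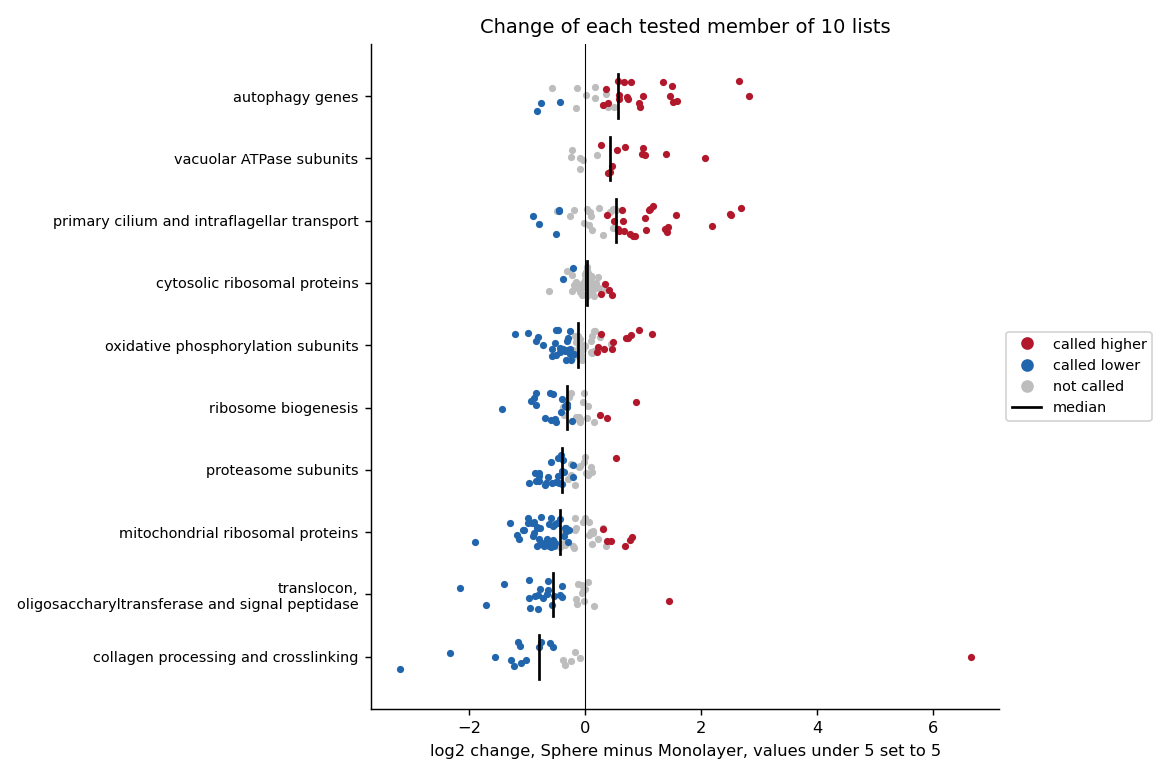
Each point is a tested member of 1 of 10 lists, placed by its log2 change (Sphere minus Monolayer, values under 5 set to 5) and coloured red where called higher, blue where called lower and grey where not called, with a black bar at the list's median. Autophagy, vacuolar ATPase and cilium genes lie mostly to the right of 0, cytosolic ribosomal proteins close to 0, and proteasome, mitochondrial ribosome, translocon and collagen processing genes mostly to the left.

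Immune genes rose and fell within the same lists. Of 21 tested cytokines, chemokines and receptors 9 rose and 9 fell, and 10 of the 21 lay under the limit on both arrays of one culture. TNF, an inflammatory cytokine, lay at 2.22 and 2.19 on the Monolayer arrays against 8.90 and 9.77 on those of Sphere, at least 20.2-fold higher (limma, adjusted p = 1.81e-05). IL32, a cytokine of activated lymphocytes and epithelia, rose at least 16.2-fold, and the interferon-induced chemokines CXCL10 and CXCL11 reached 10.66 and 11.36 and 8.36 and 9.02 from background, at least 64.6-fold and at least 12.9-fold higher (largest adjusted p of the pair in limma, 3.86e-06). LIFR and OSMR, receptors of the interleukin-6 family, fell by 9.15-fold and 10.98-fold, and LIF, a ligand of LIFR, fell at least 8.37-fold. TNFRSF12A, the receptor of TWEAK, fell from 10.84 and 11.06 to 5.74 and 6.74 (-4.71 ± 0.36, limma, adjusted p = 7.79e-05). Leukocyte markers were read beside these genes. Of 14 with a probe set, 12, among them CD2, CD3D, CD14, MS4A1, ITGAM and TYROBP, lay under the limit on all 4 arrays. The summed linear signal of the other 2, PTPRC and LCP1, was 3211 and 3685 in Monolayer and 6139.9 and 6333 in Sphere. Nearly all of it was PTPRC, the leukocyte phosphatase CD45, which went from 11.64 and 11.84 to 12.42 and 12.52 (limma, adjusted p = 0.00265). Whether its probe sets also read other transcripts was not tested. LCP1, an actin-bundling protein of leukocytes, went from 3.35 and 3.19 to 9.35 and 8.83, at least 17.1-fold higher (limma, adjusted p = 0.0027, and 0.0571 without variance moderation). The part of leukocyte markers in the immune changes was not tested.

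Interferon-stimulated genes were called in both directions: of 31 tested, 10 rose and 13 fell (median -0.34). With 1 array left out, more rose than fell in 3 of 4 cases; 10 rose and 8 fell without Monolayer replicate 1, 9 and 8 without Sphere replicate 1 or Sphere replicate 2. IFI16, a DNA sensor, lay at 8.49 and 8.43 in Monolayer and 12.51 and 13.02 in Sphere, a difference of 4.31 ± 0.16 (limma, adjusted p = 3.64e-06). OAS3, which senses double-stranded RNA, lay at 5.60 and 5.57 and 8.86 and 9.06, a difference of 3.37 ± 0.27 (limma, adjusted p = 0.0001). IFITM1, which blocks the entry of viruses, went the other way, from 11.36 and 11.52 to 5.60 and 4.93, with 1 Sphere array under the limit (limma, adjusted p = 4.07e-06), and IFI44L fell at least 8.60-fold. The interferon-stimulated response element, searched on both strands as GAAA, any 2 bases and GAAA, stood in 17 of 27 windows of the list, against 2.75% of the windows of tested genes and 3.65% of all windows. Among risers 4 of 9 windows held it, and among fallers 9 of 11, a difference that was not tested. The windows of CXCL10 (chr4:76023448-76023747, minus strand) and OAS3 (chr12:112938224-112938523, plus strand), which rose, and IFITM1 (chr11:313790-314089, plus strand), which fell, are shown with the element in capitals to set side by side genes that hold the same letters and moved in opposite directions.
CXCL10: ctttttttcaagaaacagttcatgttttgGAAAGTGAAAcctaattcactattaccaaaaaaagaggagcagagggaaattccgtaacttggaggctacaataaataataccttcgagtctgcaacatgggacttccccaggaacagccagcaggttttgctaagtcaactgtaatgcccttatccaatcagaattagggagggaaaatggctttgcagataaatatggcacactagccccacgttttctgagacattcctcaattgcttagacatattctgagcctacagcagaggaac
OAS3: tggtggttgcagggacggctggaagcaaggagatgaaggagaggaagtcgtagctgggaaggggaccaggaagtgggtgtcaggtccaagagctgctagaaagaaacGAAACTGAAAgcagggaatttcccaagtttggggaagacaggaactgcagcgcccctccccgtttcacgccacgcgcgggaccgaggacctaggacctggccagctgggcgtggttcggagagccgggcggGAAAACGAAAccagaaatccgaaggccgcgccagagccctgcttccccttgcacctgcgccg
IFITM1: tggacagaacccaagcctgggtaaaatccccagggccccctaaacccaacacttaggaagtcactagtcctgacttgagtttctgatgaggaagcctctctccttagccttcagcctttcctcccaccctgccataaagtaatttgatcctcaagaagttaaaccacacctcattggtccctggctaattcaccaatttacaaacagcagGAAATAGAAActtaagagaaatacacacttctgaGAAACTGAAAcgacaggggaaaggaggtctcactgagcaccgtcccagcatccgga

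**Figure D5:**
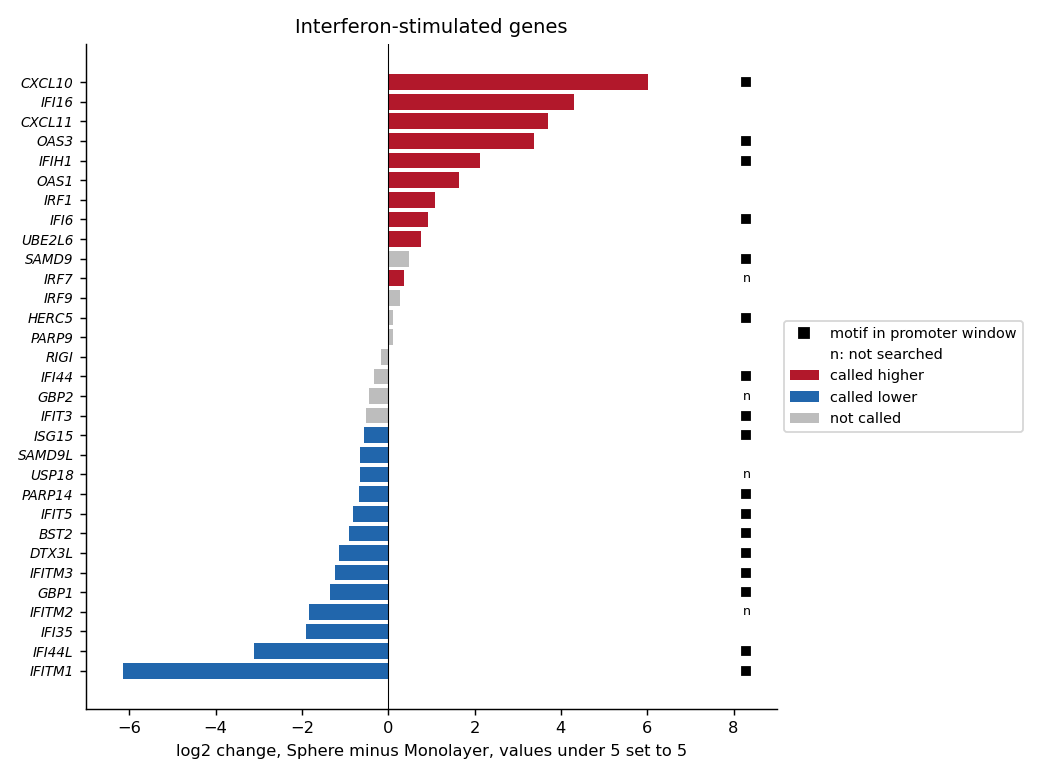
Bars show the log2 change (Sphere minus Monolayer, values under 5 set to 5) of 31 tested interferon-stimulated genes, in red where called higher, blue where called lower and grey where not called. Black squares mark genes whose promoter window holds the response element, 4 of the 9 risers and 9 of the 11 fallers with a window, and n marks genes whose window was not searched.

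In antigen processing, 8 of 17 tested genes fell and 4 rose; 2 rose and 6 fell without Monolayer replicate 2 or Sphere replicate 1. PSMB8, a subunit of the immunoproteasome, lay at 2.32 and 2.64 in Monolayer and 9.59 and 9.51 in Sphere, at least 23.5-fold higher (limma, adjusted p = 8.23e-07), although 22 of 35 proteasome genes fell. PDIA3, which helps load MHC class I, fell from 13.31 and 13.22 to 11.75 and 11.86 (-1.46 ± 0.08, limma, adjusted p = 1.74e-05). Complement and coagulation genes had 10 of 23 higher and 8 lower. Of these, 7 risers lay under the limit on both Monolayer arrays and 3 fallers on both Sphere arrays. The complement proteins C3 and C7 rose at least 20.8-fold and 49.6-fold, and CD55, which shields cells from complement, fell at least 19.1-fold from 9.32 and 9.19. The thrombin receptor F2R fell from 13.11 and 13.29 to 8.86 and 8.99 (-4.27 ± 0.21, limma, adjusted p = 1.08e-05), as did its relative F2RL2 above.

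Regulators of apoptosis changed in both directions. Of 16 tested BCL2 family genes 7 rose and 3 fell (median -0.055). BCL2, which protects cells, lay at 4.80 and 4.75 in Monolayer and 9.58 and 9.57 in Sphere, at least 23.8-fold higher (limma, adjusted p = 7.73e-06). BID and BOK, which promote death, rose at least 25.3-fold and 6.02-fold. BCL2L1, another protector, fell from 8.61 and 8.55 to 7.43 and 7.24 (-1.25 ± 0.14, limma, adjusted p = 0.00045), and BCL2L12 fell by 1.68 ± 0.27. Of 23 tested targets of p53, 7 were higher and 6 lower. These shares, 30.4% and 26.1%, lay close to the 30.0% and 29.1% of all genes. The death receptor FAS and the stress protein TP53INP1 rose at least 5.67-fold and 8.27-fold, SESN1, an inhibitor of mTORC1, rose by 1.87 ± 0.18, and the oxidoreductase TP53I3 and the cell cycle inhibitor SFN fell by 6.19-fold and 5.34-fold.

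Chromatin genes rose somewhat more often than they fell. Histone and DNA modifying enzymes had 20 of 60 higher and 8 lower (median 0.14), and 33.3% and 13.3% of the list stand against 30.0% and 29.1% of all genes; 14 rose and 5 fell without Monolayer replicate 1, 17 and 5 without Monolayer replicate 2. KMT2C, a methyltransferase of enhancers, rose from 9.21 and 9.43 to 10.91 and 11.03 (1.65 ± 0.11, limma, adjusted p = 3.75e-05), and the demethylase KDM7A by 2.73 ± 0.26. EED, a core subunit of the Polycomb complex PRC2, fell from 11.23 and 11.31 to 9.05 and 9.36 (-2.06 ± 0.13, limma, adjusted p = 3.3e-05), the deacetylase HDAC8 by -2.59 ± 0.28, and the acetyltransferase KAT2B at least 2.48-fold. Of 41 remodelling genes 16 rose and 8 fell, and without variance moderation 10 and 6; 14 rose and 5 fell without Sphere replicate 2. Beside SMARCA1, the risers included CHD7, a remodeller of neural crest genes, by 1.46 ± 0.11, and BAZ2B by 2.26 ± 0.13. The histone variants parted, MACROH2A2 rising from 7.72 and 7.58 to 10.01 and 9.93 (limma, adjusted p = 1.25e-05) and H2AX falling from 11.39 and 11.39 to 9.86 and 10.14 (limma, adjusted p = 0.000288). Splicing factors of the SR and hnRNP families had 8 of 35 higher and 8 lower, with HNRNPA3 up by 1.56 ± 0.14 and PTBP3 by 1.20 ± 0.08; 6 rose and 3 fell without Monolayer replicate 1 or Sphere replicate 1, 7 and 2 without Monolayer replicate 2, 6 and 5 without Sphere replicate 2.

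In the circadian clock 2 of 16 rose and 4 fell; 2 fell without Monolayer replicate 1. The repressor NFIL3 fell by 1.39 ± 0.17. Only 9 of 32 listed tight and gap junction genes were tested, of which 2 rose and 2 fell, and JAM2, a junctional adhesion protein, went from 2.65 and 2.70 to 9.80 and 9.68, at least 26.7-fold higher (limma, adjusted p = 6.05e-07). ABC transporters, several of which export drugs, had 5 of 18 higher and 6 lower; 4 rose and 3 fell without Monolayer replicate 2, 3 and 5 without Sphere replicate 1 or Sphere replicate 2. The lipid exporter ABCA3 rose by 1.97 ± 0.15 and ABCA7 fell by 1.44 ± 0.17. The remaining lists with their counts called higher and lower were polyamine metabolism (3 and 7 of 14), aminoacyl-tRNA synthetases (2 and 4 of 17), the pentose phosphate pathway (3 and 2 of 9), translation factors (8 and 15 of 41), amino acid transporters (5 and 9 of 23), iron handling (2 and 7 of 15), metallothioneins and zinc transporters (9 and 5 of 21), sterol efflux (3 and 4 of 15), RGS proteins (4 and 5 of 12) and histones (1 and 5 of 13). Counts in several of them moved when 1 array was left out. Of translation factors 4 rose and 8 fell without Monolayer replicate 1, 4 and 9 without Monolayer replicate 2, 5 and 8 without Sphere replicate 1. Of amino acid transporters 3 rose and 7 fell without Monolayer replicate 1, 3 and 8 without Monolayer replicate 2 or Sphere replicate 1, 3 and 11 without Sphere replicate 2. Of zinc genes 8 rose and 2 fell without Monolayer replicate 1 or Monolayer replicate 2 or Sphere replicate 1, 8 and 3 without Sphere replicate 2. Of iron genes 3 fell without Monolayer replicate 1, 4 without Monolayer replicate 2 or Sphere replicate 2. Of sterol efflux genes 3 rose and 2 fell without Monolayer replicate 1 or Monolayer replicate 2. Of histones 2 fell without Monolayer replicate 1 or Sphere replicate 1, 3 without Monolayer replicate 2 or Sphere replicate 2, and of aminoacyl-tRNA synthetases 2 fell without Monolayer replicate 1 or Monolayer replicate 2.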

How the data were processed

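Values are the deposited log2 signals, made by the authors with GCRMA, per the submitters' processing notes, which also name Partek, with no version or setting stated there. Signals of unexpressed probe sets are compressed by GCRMA into a narrow low band. Of 54675 probe sets 41091 carry 1 gene symbol in the platform annotation, with symbols updated against RefSeq (GRCh38.p14). Per gene, the passing probe set with the highest mean was used. Linear models (limma 3.58.1, R 4.3.3; mean per culture over 6 arrays, empirical Bayes with a trend) were tested on both sides and on simulated data. Among 4742 genes with several passing probe sets, 149 had probe sets called in opposite directions.

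The comparison, the lists and their members were chosen with earlier results of these data known. The naming rule took the 10 steepest called genes in each direction measured on all 4 arrays, the 6 largest lower-bound folds each way, and up to 4 called members of each list each way, where arrays did not overlap. The text names part of them, chosen with a view to calls that held under the alternatives; BBS1 and IFT81 were added for their promoter motif, and members of the marker lists after their values were seen. Alternatives are named in the closing section. Figures were drawn with matplotlib 3.10.9.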

Additional observations from a re-analysis of the deposited data

Results flagged for a closer look

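Probe sets with no gene symbol or several, which entered no comparison above, also carried signal that differed between the cultures. Of 2500 such probe sets at or above log2 5 on 2 or more arrays, 1186 (47.4%) were called in Sphere against Monolayer when fitted apart with limma, 622 higher and 564 lower.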

How the results depend on the processing

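The number of genes called in Sphere against Monolayer, 6176, lay between 4527 (without x_at and s_at probe sets, 7747 genes tested) and 6607 (the 4 Monolayer and Sphere arrays alone) over 18 alternatives, and none moved it by more than 1.5 times. Leaving out one array gave 4530 to 6604 calls, where the lone array of a culture is assumed to vary like the others. The alternatives were no filter or a filter at log2 7, values under 5 set to 5, renewed quantile normalization, a median shift, the mean of a gene's probe sets, no trend, no moderation, removal of chromosome medians, the replicate number as a block and the omission of each array. Of the 238 genes named with values, 234 kept their direction and call in each alternative that tested them, although they were partly chosen for this. The 4 markers COL3A1, TYRP1, LCP1 and KRT7 kept their direction and lost their call in at least 1. Of 1098 list counts, 958 stayed within 1.5 times of the value given, 138 moved beyond it and 2 reversed direction. The moves came mostly with an array, variance moderation or the suffixed probe sets left out. Of the 61 lists, 13 stayed within 1.5 times throughout. The leading direction turned in at least 1 alternative in 16 lists, in 10 of them by leaving out a Monolayer or Sphere array. The 10 were the WNT, ERK output, sphingolipid, lysosomal, interferon, serine, amino acid response, sterol efflux, ABC transporter and cytosolic ribosomal protein lists. Without the suffixed probe sets it turned in matrix glycoproteins (11 higher and 9 lower), translation factors (10 and 5), RGS proteins (3 and 2) and p53 targets (2 and 4), and p53 targets also turned to 7 and 8 without either iCSC array. Complement and coagulation genes turned to 7 and 8 with the filter at log2 7. Only 2 of the 16 had at least 2 times as many members called one way as the other. Of the citric acid cycle genes called lower, 1 was left without the suffixed probe sets, where 4 of 14 rose, and of cytosolic ribosomal proteins 3 were higher without Sphere replicate 1, where 6 were lower, and leaving out one array gave 2 to 8 higher. The cause was not tested. Of 106 named genes with several passing probe sets, 13 had one that was not called in the direction given, and 0 had one called the other way in limma. Arrays with the same replicate number share only a number: the correlation of their deviations from the culture means was 0.019 for Monolayer and Sphere, -0.053 for Monolayer and iCSC and 0.17 for Sphere and iCSC. With the replicate block 6219 genes were called. With 2 arrays per culture the number of arrays limits the precision, and values near background carry no order.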
